A study of Homo sapiens with 35 samples.

Results

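The HOX genes of the HOXA, HOXB, HOXC and HOXD clusters were described in a single list of ATAC-seq peaks from human blood progenitors. ATAC-seq marks open chromatin as places where a transposase can insert sequencing adapters. Members were the protein-coding genes named HOX with a cluster letter and a number: 38 of the 39 such genes are described, among 19974 protein-coding genes in all, with 10 in HOXA, 10 in HOXB, 9 in HOXC and 9 in HOXD. The progenitors were differentiated from the established human embryonic stem cell line H1, and the labels describe 35 libraries (the design text counts 44). Cultures labelled doxee17 (batch 1) gave 12 libraries with doxycycline and 11 without it, and cultures labelled h1 (batch 2) gave 12 without it, at 6 time points from day 10 to day 20. They form 18 groups of 1 to 3 libraries. Doxycycline induced ectopic MYC, and the sources used here do not say how the doxee17 cells were made or whether they are 1 clone.

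The deposited list holds 1 value per peak and none per library, so nothing here compares treated with untreated cells, lines or days, and the spread between replicates is unknown. Every fold below is the authors' enrichment of a peak's summit, its position of highest signal, over a genome-wide background. Intervals are exact Poisson 95% intervals on the pooled pileup and cover counting error only. The list has 308145 peaks on chromosomes 1 to 22 and X, and the depth of single libraries is unknown. Among genes that mark blood progenitors, summits at gene ends reached 109-fold for SPI1, 80.9 for RUNX1, 59.8 for KIT, 37.9 for MYB, 31.8 for LMO2 and 14.8 for CD34, while GATA2 and TAL1 had no summit there but lay wholly under wide peaks. Of the genes that mark other cells, COL1A1 reached 60.6-fold, KDR 28.4, NANOG 2.42 and POU5F1 1.93, and ALB, CDH5, COL3A1, DCX and FLG had no summit at an end, though a peak of 33.4-fold overlapped the window of CDH5. The part of other cells in any HOX peak was not tested.

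HOX genes encode homeodomain transcription factors that give cells their position along the body axis. Within a cluster they point the same way and are numbered from the 3′ to the 5′ side, and in embryos the 3′ genes are switched on earlier and farther forward than the 5′ genes. Genes with the same number in different clusters are paralogs. Polycomb complexes keep the clusters silent and Trithorax-type complexes, among them the one built on KMT2A, keep them active. In blood, HOXA and HOXB genes such as HOXA9 and HOXB4 are linked to stem and progenitor cells, and HOXA9 with its partner MEIS1 is often high in leukaemia.

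Most HOX genes carried a peak at an end, but the peaks were low. A summit lay within 1 kb of an annotated end in 35 of 38 HOX genes (92.1%), against 83% of all protein-coding genes. This order turned with windows of 0.5 kb (27 of 38, or 71.1%, against 72.6%) and with the more significant 50% of peaks (25 of 38, or 65.8%, against 75.4%). The median of the highest fold there, with 0 for a gene without a summit, was 5.23 over the HOX genes (quartiles 2.76 and 17.8) and 43.5 over all coding genes. At least 10-fold was reached by 12 of 38 (31.6%), against 66.4% of coding genes, and at least 50-fold by 0 of 38, against 47.8%. The highest member was HOXA4 at 39.5-fold, so none of the 38 exceeded the median of coding genes. With windows of 0.5 kb, where that median is 27.9, HOXA4 (39.5), HOXB4 (39.2) and HOXB5 (35.0) exceeded it. When every peak overlapping the same window was counted, wherever its summit lay, the median was 14.1 for HOX genes and 56.1 for coding genes. At least 10-fold was then reached by 20 of 38, against 73.5% of coding genes. HOX genes are short, so genes of 2 to 10 kb were also taken alone: the median was 5.77 over 31 HOX genes and 22.97 over 4411 coding genes, of which 40.9% reached 50-fold. HOXA4, HOXB4, HOXB5 and HOXC10 (26.3) exceeded that 22.97.

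By contrast, peaks covered much of the HOX gene bodies. The median share of a gene's length under peaks was 39.9% for HOX genes and 12.6% for all coding genes, and 14 of 38 (36.8%) were covered over more than 50% of their length, against 12.1% of coding genes. Part of that gap goes with length, since coding genes of 2 to 10 kb had a median of 30.0% and 31.0% of them were covered over more than 50%. The 31 HOX genes of that length had a median of 42.0%, and 13 of them (41.9%) were covered over more than 50%. The annotated start base lay inside a peak in 30 of 38 HOX genes (78.9%), near the 78.8% of the 15831 coding genes whose strand is known.

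**Figure D1:**
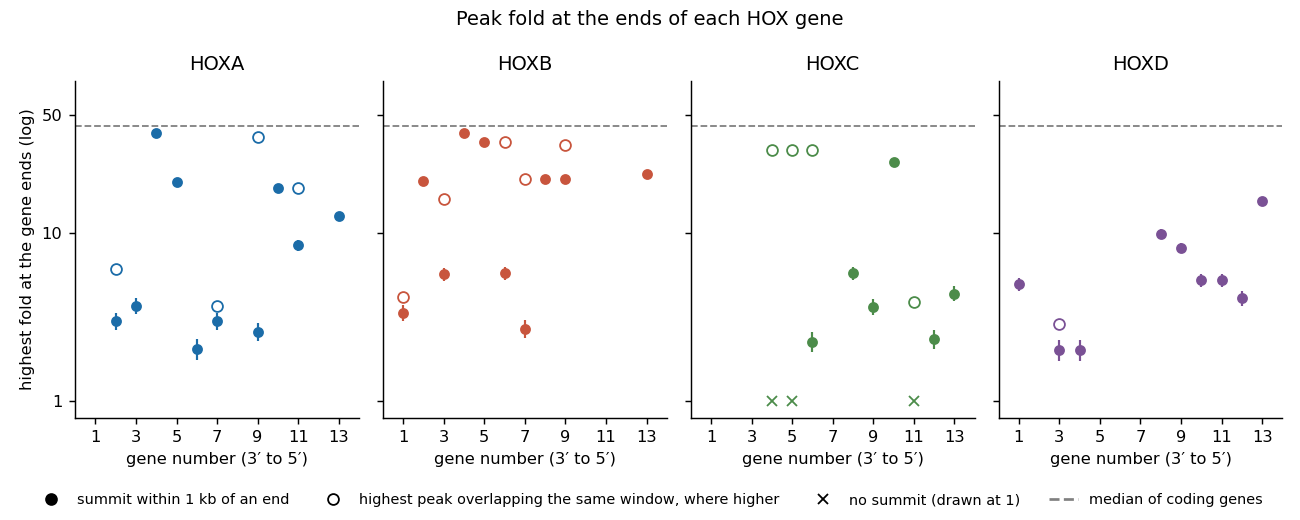
Highest fold at the ends of each HOX gene (log axis) against its number in the cluster, 1 panel per cluster. Filled points are summits within 1 kb of an end with Poisson 95% intervals, often hidden by the point; open points are higher peaks that overlap the same window with a summit farther away; crosses mark HOXC4, HOXC5 and HOXC11, which have no summit and are drawn at 1. All points lie under the dashed line, the median of 43.5-fold over coding genes.

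In HOXA, on chromosome 7 from 27100354 to 27200091 with the genes on the minus strand, the highest values at gene ends were those of HOXA4, HOXA5 and HOXA10. HOXA4 had the 39.5-fold peak (interval 38.2 to 40.8; chr7:27129924-27131445), whose summit lay 291 bp upstream of its start. HOXA5, next to it, had 20.02-fold (19.1 to 20.9), with the summit 146 bp upstream. HOXA10 reached 18.5-fold (17.7 to 19.4), 73 bp upstream. The intervals of HOXA5 and HOXA10 overlap, and both lie far under that of HOXA4. At the posterior end, HOXA13, a gene of limb and genital development, lay partly under a wide peak of 4128 bp and 12.6-fold that also covered an end of the noncoding gene HOTTIP.

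The other HOXA genes had lower folds at their ends. HOXA11 had 8.44-fold in a peak of 3408 bp, HOXA3 3.68, HOXA2 and HOXA7 2.98 each and HOXA6 2.03. HOXA2, the first gene of the interval taken here, is a hindbrain gene, and its start base lay in no peak. HOXA9 had 2.58-fold by its summit, but its start base lay in another peak of 9.11-fold and a peak of 37.0-fold reached into the 1 kb past its 3′ end. That 37.0-fold peak (chr7:27160133-27162237, interval 35.8 to 38.2) had its summit between HOXA9 and HOXA7 and overlapped neither gene. A value for HOXA9 thus depends on which of 3 peaks is taken, and none of them reached the median of coding genes.

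HOXB, on chromosome 17 from 48528526 to 48728750 and also on the minus strand, had the highest median of the 4 clusters. The median at gene ends was 20.6-fold, against 6.06 in HOXA, 5.23 in HOXD and 2.34 in HOXC, and 6 of 10 genes reached 10-fold. The gap depended on the window. With 0.5 kb the median was 4.51 in HOXB, 3.77 in HOXD, 2.86 in HOXA and 2.34 in HOXC. With 2.5 kb it was 21.8 in HOXB, 19.3 in HOXA, 5.77 in HOXC and 5.23 in HOXD. For the highest peak over the 5′ end alone, it was 14.9 in HOXB, 8.78 in HOXA, 5.77 in HOXC and 4.95 in HOXD. The order of HOXC and HOXD thus turned with the measure. With a summit counted only for its nearest gene, HOXB had 13.1. HOXB4 had 39.2-fold (38.0 to 40.5), with its summit 31 bp inside the start. Its peak of 5754 bp (chr17:48575408-48581161) was the widest in the 4 clusters and covered 100% of the gene. HOXB4 and HOXA4 are paralogs, and their intervals overlap. HOXB5 had 35.0-fold (33.8 to 36.2) in a peak of 3856 bp that ran on to the end of HOXB6. HOXB13, a gene known from the prostate and the hindgut, had 22.5-fold (21.6 to 23.5), but this summit lay past its 3′ end beside PRAC2, and the peak over its start had 5.17-fold.

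HOXB8, HOXB9 and HOXB2 followed with 21.1, 20.8 and 20.4-fold, and their intervals overlap one another. The HOXB8 summit lay 2203 bp inside its start, and the highest peak within 1 kb of that start had 9.38-fold. The HOXB2 summit lay 1508 bp inside its start, in a peak that also covered the start. HOXB6 had 5.77-fold by its summit and 35.0 by overlap with the HOXB5 peak. HOXB3 had 5.67-fold at its start. HOXB7 had 2.69-fold by a summit past its 3′ end, while its start lay under the HOXB8 peak of 21.1-fold. HOXB1, the first gene, had 3.34-fold past its 3′ end and 1.59 over its start, whose base lay in no peak. Coverage of the gene bodies ran from 23.3% at HOXB13 to 100% at HOXB4, with a median of 75.4%, and 8 of 10 were covered over more than 50%, compared with 4 of 10 in HOXA, 2 of 9 in HOXD and 0 of 9 in HOXC.

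HOXC, on chromosome 12 from 53938831 to 54056030 on the plus strand, had 1 gene above 10-fold, HOXC10, at 26.3-fold (25.2 to 27.3), 131 bp upstream of its start. HOXC8 followed with 5.77-fold and HOXC13, known from hair and nails, with 4.37. HOXC9 had 3.63-fold, HOXC12 2.34 and HOXC6 2.26, the last of these at its 3′ end. HOXC4, HOXC5 and HOXC11 had no summit within 1 kb of an end. HOXC4, HOXC5 and HOXC6 share an annotated start, and a peak of 31.3-fold (chr12:54017176-54019025, interval 30.2 to 32.4) had its summit 1127 bp from it, just outside the window. With overlap counted, these 3 genes had 31.3-fold and HOXC11 had 3.87. At their shared start, the low values of these 3 genes therefore depend on where the window ends. At its 3′ end HOXC4 had no summit within 1 kb, and the nearest peaks inside it had 2.32 and 3.41-fold.

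HOXD, on chromosome 2 from 176087487 to 176190907 on the plus strand, had 1 gene above 10-fold, HOXD13, at 15.5-fold (14.7 to 16.3). HOXD13, which patterns the digits, has the summit 933 bp inside its annotated start. That start base lay in no peak, and with windows of 0.5 kb HOXD13 had no summit at an end. A further annotated start, 5234 bp into the gene, lay under another peak of 9.29-fold. HOXD8 had 9.91-fold (9.29 to 10.6) and HOXD9 8.13 (7.56 to 8.72). HOXD10 and HOXD11 shared a peak of 5.23-fold, HOXD1, the first gene, had 4.95, and HOXD12 had 4.09. HOXD3 and HOXD4 shared a peak of 2.02-fold. HOXD1 lay under the widest peak of the cluster (2764 bp), so width and fold did not go together there. Because of such sharing, the 35 values with a summit rest on 33 peaks.

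In 27 of the 35 genes with a summit, that summit lay within 1 kb of the 5′ end, at a median distance of 251 bp, with 13 upstream of the start and 14 inside the gene. The other 8 had it at the 3′ end, 5 of them in HOXB. The same counts were not made over all coding genes, so they do not show a trait of HOX genes. Several HOX genes lie so close together that the 3′ end of one is near the start of the next.

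Along the clusters, fold did not follow gene number closely. Spearman's correlation of number with fold at the ends was 0.0608 in HOXA (10 genes), 0.297 in HOXB (10), 0.441 in HOXC (9), 0.504 in HOXD (9) and 0.156 over all 38 genes. Over all 38 it was −0.0662 when overlapping peaks were counted and −0.336 for the share of the gene covered, which also turned it negative in HOXB (−0.224), HOXC (−0.233) and HOXD (−0.417). These are descriptions without a test, since neighbours share peaks and all values come from 1 pool. In HOXC the value turned to −0.780 when overlapping peaks were counted. HOXC4, HOXC5 and HOXC6 then took the 31.3-fold peak, which lies inside them and does not reach their shared start. By class, anterior genes (numbers 1 to 3) had a median of 3.68-fold, central genes (4 to 8) 5.77 and posterior genes (9 to 13) 6.68. With overlap counted these medians were 4.95, 21.1 and 10.4, which puts the central genes highest.

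Paralogs could differ widely. In group 4, HOXA4 and HOXB4 had 39.5 and 39.2-fold, HOXD4 had 2.02, and HOXC4 had no summit but 31.3 by overlap. In group 10, HOXC10 had 26.3-fold, HOXA10 18.5 and HOXD10 5.23, with intervals that do not overlap. In group 13 the order was HOXB13, HOXD13, HOXA13 and HOXC13, from 22.5 down to 4.37-fold, but over its start HOXB13 had 5.17, under HOXD13 and HOXA13. The further start inside HOXD13 had 9.29-fold, which is under HOXA13. HOXB9 had 20.8-fold, while HOXD9 had 8.13, HOXC9 3.63 and HOXA9 2.58. The place of HOXA9 rests on the summit, since it had 9.11 over its start and 37.0 by overlap, where HOXB9 had 33.3.

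The clusters were dense in peaks, and except on the 3′ side of HOXB the flanks were sparser. Each held 31.5 to 34.1 peaks per 100 kb, compared with a median of 16.4 to 17.1 in windows of the same length centred on every coding gene, of which 5.25% to 8.10% were as dense or denser. Peaks covered 38.5% of HOXA, 37.7% of HOXB, 24.5% of HOXC and 26.5% of HOXD, and the median window had 12.7% for each length. Windows with at least that coverage made up 7.02%, 4.43%, 22.3% and 19.9%. In the 100 kb on the 3′ and 5′ sides, coverage was 7.14% and 15.9% at HOXA, 21.3% and 13.5% at HOXB, 5.28% and 1.44% at HOXC, and 2.15% and 10.5% at HOXD. Every flank thus had less coverage than its cluster, and the 3′ side of HOXB, with 31 peaks, was nearly as dense in peaks as the cluster itself. With peaks of at least 10-fold alone, the HOXD flanks (2.70%) had slightly more coverage than the cluster (2.57%). The highest peak of each cluster was 39.5-fold in HOXA, 64.6 in HOXB, 31.3 in HOXC and 45.0 in HOXD, while the highest peak of the median window had 91.0 to 126-fold.

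**Figure D2:**
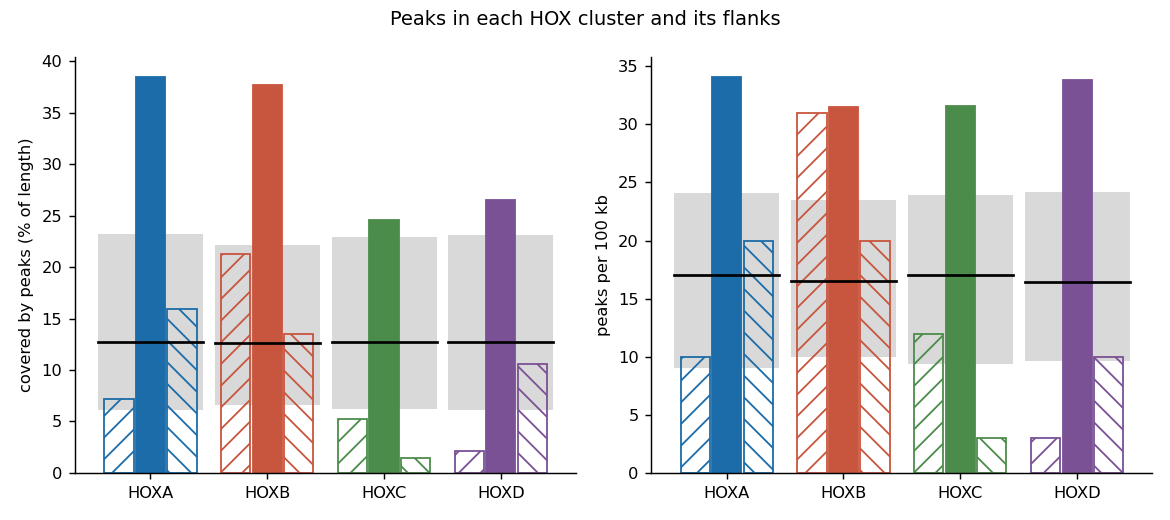
Percent of length covered by peaks (left) and peaks per 100 kb (right) in each cluster (solid bars) and in the 100 kb on its 3′ and 5′ sides (hatched bars, 3′ on the left). Grey bands are the quartiles and black lines the medians of windows of the cluster's length at all coding genes; the solid bars lie above the bands, from 24.5% to 38.5% and from 31.5 to 34.1 peaks per 100 kb.

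The width of HOXB hides a split. From HOXB1 to HOXB9, 42 peaks covered 57.1% of 97.8 kb, while between HOXB9 and HOXB13 20 peaks covered 18.9% of 98.4 kb. The second stretch includes gaps without a peak of 36.5 kb and 15.2 kb in the region of the noncoding gene LINC02086. The longest gap was 14.2 kb in HOXC, inside the annotated HOXC4 gene, 10.4 kb in HOXD, before HOXD4, and 6.73 kb in HOXA, where it took in part of HOXA4.

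Inside the clusters, peaks at gene ends had about the same fold as peaks elsewhere. Of 169 peaks with a summit in a cluster, 55 (32.5%) lay within 1 kb of a coding gene end, compared with 6.98% of all peaks. Each cluster holds 9 to 12 coding genes in 99.7 to 200 kb, so much of its length is near a gene end. The shares were not adjusted for this density, so they do not show that HOX peaks gather at gene ends. The 55 peaks at gene ends had a median fold of 3.63, and the other HOX peaks 3.43. Across the genome the same medians were 20.5 at gene ends and 3.31 elsewhere. Over all 169 peaks the median was 3.50-fold, near the 3.46 of the whole list, and the median width was 697 bp, against 482 bp. At least 20-fold was reached by 22 (13.02%), near the 12% of all peaks, and 0 of the 169 passed 100-fold. Of those 22 peaks, 9 (40.9%) had their summit at a coding gene end, compared with 29.3% of all peaks of that strength. These shares, too, were not adjusted for the density of genes.

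**Figure D3:**
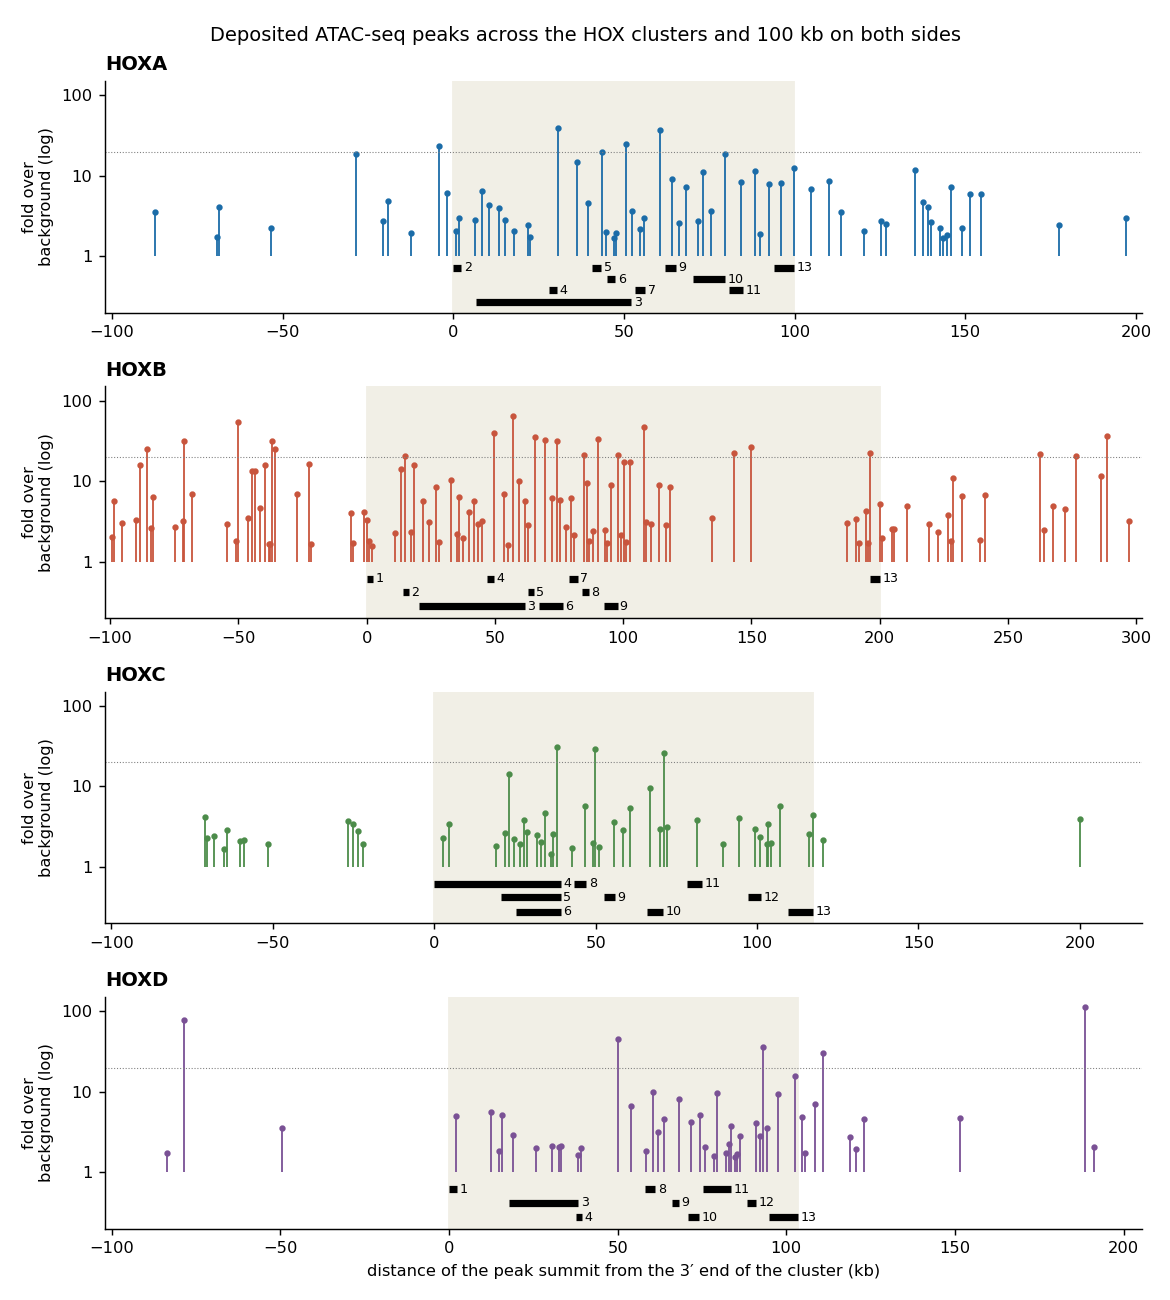
Deposited peaks across each cluster (shaded) and 100 kb on both sides, drawn by the distance of the summit from the cluster's 3′ end (kb) and by fold (log axis). Black bars with numbers are the genes and the dotted line is 20-fold; 13 peaks in HOXB, 4 in HOXA, 3 in HOXC and 2 in HOXD reach it, and the flanks are sparser except on the 3′ side of HOXB.

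In HOXB, HOXC and HOXD the highest peak had its summit over 1 kb away from any coding gene end, while in HOXA it was that of HOXA4. In HOXB, a 64.6-fold peak (chr17:48584961-48586702, interval 63.0 to 66.3) lay in the body of HOXB3, whose own start had 5.67-fold. A 47.0-fold peak (chr17:48636314-48637085) lay 5′ of HOXB9 within the noncoding gene LINC03057. Peaks of 32.2 and 31.7-fold lay in the body of HOXB6 and one of 33.3-fold between HOXB8 and HOXB9. Farther on, 22.5 and 26.7-fold peaks lay within LINC02086 near the long gaps.

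In HOXD, 45.0-fold (chr2:176140266-176141210) was reached within the noncoding locus LOC401021, between HOXD4 and HOXD8, and 36.1-fold (chr2:176097106-176098079) between HOXD13 and HOXD12. Both exceeded every value at a HOXD gene end. In HOXC, the 31.3-fold peak already described was the highest, and a 29.0-fold peak (chr12:54005693-54006683) lay between HOXC9 and HOXC8. In HOXA, a 24.7-fold peak (chr7:27150506-27151469) lay inside HOXA3 at a further annotated start, 1633 bp into the gene, while the outermost start of HOXA3 had 3.68-fold.

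Beyond the clusters, peaks of at least 20-fold lay both at neighbouring genes and between genes. LNPK, on the 5′ side of HOXD, had 112-fold, and MTX2, on the 3′ side, 78.4-fold. EVX2, a homeobox gene beside HOXD13, had a 30.0-fold peak in its body and no summit at an end. EVX1, its relative on the 5′ side of HOXA, had 2.26-fold at an end and a 7.28-fold peak in its body. On the 5′ side of HOXB, TTLL6 had 36.6-fold, and on the 3′ side 5 peaks reached 20-fold, 0 of them at a coding gene end. The highest of these, 54.2-fold, lay between HOXB1 and SKAP1, whose ends had at most 6.29-fold. Inside the HOXB interval, between HOXB9 and HOXB13, PRAC1 had 4.33-fold. LNPK and MTX2 have peaks within 100 kb of HOXD genes, which had 2.02 to 15.5-fold at their ends.

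The HOX starts with a sequence had low peaks, though their median CpG ratio was above that of coding promoters. RefSeq (GRCh38.p14) sequences of 300 bases, 250 before and 50 after a start, matched 20 of the 38 genes and gave 26 distinct promoters. Of HOXB, the cluster with the highest median, HOXB1 alone is among them, and 7 of the 26 are starts of HOXA3, so they do not stand for all HOX starts. The observed over expected CpG ratio had a median of 0.855, against 0.737 in 22012 promoters of coding genes. In HOX promoters it ran from 0 to 1.27, with a median of 0.571 in the 6 under no peak. Their median share of G and C was 58%, under the 62.3% of coding promoters. A peak overlapped 20 of the 26 HOX promoters (76.9%), compared with 81.3% of coding promoters, but the median fold was 3.87 against 51.4. Coding promoters with a CpG ratio at or above the HOX median numbered 7161, of which 98.5% lay under a peak, with a median of 99.6-fold, and 76.5% reached 50-fold. None of the 26 HOX promoters did. Among HOX promoters with a ratio from 0.8 to 1, 9 promoters had a median of 4.95-fold, and coding promoters in that range had 97.7.

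**Figure D4:**
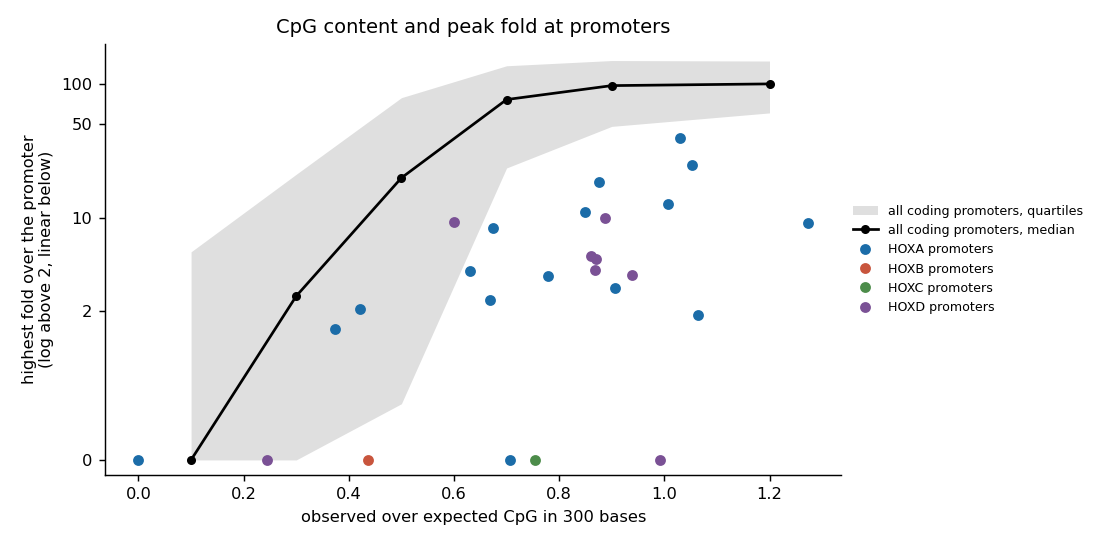
Highest fold of a peak over each promoter (logarithmic above 2, linear below) against its observed over expected CpG ratio in 300 bases. Coloured points are the 26 HOX promoters; the black line joins medians and the grey band quartiles of coding promoters in 6 ranges of the ratio; above a ratio of 0.8 the HOX points lie between 0 and 39.5-fold, under the band.

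The promoters of HOXA4, HOXA9 and HOXD10 are shown as starts under peaks of 39.5, 9.11 and 5.23-fold. The last is near the median of 5.09 of the HOX promoters under a peak. Those of HOXA2 and HOXD4 are shown as starts under no peak. Each line gives the 250 bases before the annotated start, 5′ to 3′ on the gene's strand. Capitals mark the E-box CACGTG, the letters bound by MYC with its partner MAX, and the CCAAT box, written CCAAT or, on the other strand, ATTGG.
HOXA4 (chr7:27130758-27131007, minus strand): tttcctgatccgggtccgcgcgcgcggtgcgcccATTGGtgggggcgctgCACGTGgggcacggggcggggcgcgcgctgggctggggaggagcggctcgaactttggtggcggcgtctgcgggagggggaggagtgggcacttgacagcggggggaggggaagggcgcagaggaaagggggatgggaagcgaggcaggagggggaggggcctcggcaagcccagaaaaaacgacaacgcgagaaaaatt
HOXA9 (chr7:27165538-27165787, minus strand): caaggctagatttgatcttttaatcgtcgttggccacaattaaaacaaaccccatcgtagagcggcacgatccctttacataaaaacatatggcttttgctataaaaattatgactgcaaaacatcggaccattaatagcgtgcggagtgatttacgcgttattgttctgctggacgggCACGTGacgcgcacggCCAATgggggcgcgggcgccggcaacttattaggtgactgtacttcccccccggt
HOXD10 (chr2:176116528-176116777, plus strand): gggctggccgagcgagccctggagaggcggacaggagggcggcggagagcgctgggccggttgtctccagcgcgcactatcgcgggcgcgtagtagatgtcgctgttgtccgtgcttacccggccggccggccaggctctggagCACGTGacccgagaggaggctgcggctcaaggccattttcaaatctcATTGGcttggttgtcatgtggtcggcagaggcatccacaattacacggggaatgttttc
HOXA2 (chr7:27102684-27102933, minus strand): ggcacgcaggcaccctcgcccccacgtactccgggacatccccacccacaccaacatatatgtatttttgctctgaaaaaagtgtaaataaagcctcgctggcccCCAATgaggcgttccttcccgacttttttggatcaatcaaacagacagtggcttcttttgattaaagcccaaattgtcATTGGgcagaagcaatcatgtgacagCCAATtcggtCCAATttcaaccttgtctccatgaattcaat
HOXD4 (chr2:176151300-176151549, plus strand): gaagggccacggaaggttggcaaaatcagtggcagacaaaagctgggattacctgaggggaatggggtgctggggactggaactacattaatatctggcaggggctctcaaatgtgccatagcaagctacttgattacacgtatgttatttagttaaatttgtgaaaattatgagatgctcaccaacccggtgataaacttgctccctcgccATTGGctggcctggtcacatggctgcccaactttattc

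HOXA4, with 39.5-fold over these bases, is 70% G and C and holds 26 CpG in the 250 bases. HOXA9 has 9.11-fold and HOXD10 5.23-fold, and each of the 3 promoters holds 1 E-box and 1 CCAAT box. HOXA2 and HOXD4 hold 8 and 4 CpG, and no peak touches them. HOXA2 has 4 CCAAT boxes and HOXD4 has 1, and neither has an E-box. The promoters shown were picked with the peak values in view, so they do not show whether an E-box goes with a peak.

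Over the 26 distinct promoters of 300 bases, read on both strands, CACGTG was found in 9 (34.6%), compared with 8.32% of all coding promoters and 11.1% of those at or above the HOX median CpG ratio. They belong to HOXA4, HOXA7, HOXA9, HOXD1, HOXD10 and HOXD11 and, at starts inside the gene, to HOXA3, HOXD3 and HOXD13, and 8 of the 9 lay under a peak, of 2.07 to 39.5-fold. CACGTG was in 8 of 20 HOX promoters under a peak (40%) and in 1 of 6 under none (16.7%). The latter was a start inside HOXD3. Promoters without CACGTG included those under peaks of 24.7-fold in HOXA3, 18.5 in HOXA10 and 12.6 in HOXA13. CCAAT was found in 17 of the 26 (65.4%), against 34.7%. It was in 12 of 20 under a peak (60%) and 5 of 6 under none (83.3%), against 33.6% and 39.6% of coding promoters. Whether any motif goes with a peak was not tested. The TATA box TATAAA was found in 5 (19.2%, against 9.49%) and the HOX-PBX letters TGATNNAT, a site form for HOX proteins with their PBX partners, in 3 (11.5%, against 5.22%). For 3 blood factors, the shares were 2 (7.69%, against 7.90%) for the GATA letters AGATAA, 1 (3.85%, against 12.4%) for the ETS letters GGAAGTG and 3 (11.5%, against 11.3%) for the RUNX letters TGTGGT. Different motifs may overlap in a promoter. A match is a run of letters and not a measured site, and paralogous promoters share ancestry, so these counts are not independent.

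MicroRNA genes lie inside the clusters and target, among others, HOX messages. The mature 5′ strands of the miR-196 genes are shown to let the copies be compared, and that of MIR10A because its gene lies under the HOXB4 peak, with the seed (bases 2 to 8, which pair with targets) in capitals, from RefSeq.
miR-196a-5p, from MIR196A1 in HOXB and MIR196A2 in HOXC: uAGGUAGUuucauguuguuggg
miR-196b-5p, from MIR196B in HOXA: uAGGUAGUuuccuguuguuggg
miR-10a-5p, from MIR10A in HOXB: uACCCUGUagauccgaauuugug

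The miR-196 genes share the seed AGGUAGU but not their peaks. MIR196A1 (chr17:48632490-48632559) lay under a peak of 17.1-fold and 4013 bp, MIR196B (chr7:27169480-27169563) under 7.34-fold, and MIR196A2 (chr12:53991738-53991847), which yields the same 5′ strand as MIR196A1, lay 2194 bp from the nearest peak. MIR10A (chr17:48579838-48579947) lay under the 39.2-fold peak of HOXB4, while its paralog MIR10B (chr2:176150303-176150412), beside HOXD4, lay 1197 bp from any peak. MIR615, inside HOXC5, lay under 2.61-fold. A peak thus overlapped 4 of the 6, and 30.0% of 1911 miRNA genes in all. For the miRNA genes, too, the HOXB copies had the higher peaks.

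Long noncoding RNA genes of the clusters had peaks of 2.42 to 35.0-fold, many of them shared with coding genes. HOTAIRM1, which is transcribed at the 3′ end of HOXA in myeloid cells, had 23.3-fold, HOTTIP at the 5′ end 12.6 and HOXA11-AS 11.6. HOXA10-AS had 7.34-fold and HOXA-AS2 2.42. The highest peak over HOXA-AS3 was the 24.7-fold one inside HOXA3, and that over HOXB-AS3 was the 35.0-fold one of HOXB5. HOXB-AS1 shared the 20.4-fold peak of HOXB2. HOTAIR in HOXC overlapped a peak of 3.87-fold, HOXC-AS1 had 3.63, and HAGLR and HAGLROS in HOXD shared 5.68. Reads from overlapping genes on opposite strands cannot be told apart in ATAC-seq.

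Genes that act on HOX genes had higher peaks at their own ends. In a list of 32 Polycomb, Trithorax and boundary factors, 32 had a summit (all coding genes 83%), the median was 114-fold and 26 reached 50-fold (81.2%, against 47.8%). The highest were CTCF, which marks boundaries in the clusters, at 268, ASXL1 at 241 and CBX8 at 203, and the lowest KDM6B at 1.75 and PCGF2 at 3.81, which lay under peaks of 166 and 185-fold when overlap was counted. The 48 other homeobox genes of the Antennapedia class, which are relatives outside the clusters, had a median of 12.5-fold, between the HOX genes and coding genes at large. Of these 48, 46 had a summit (95.8%, against 83%), 29 reached 10-fold (60.4%, against 66.4%) and 6 reached 50-fold (12.5%, against 47.8%), led by HLX (106), HHEX (80.1) and MSX2 (65.7), and EVX2 and MEOX1 had none. Their median coverage was 54.4%, above the 39.9% of HOX genes. These genes were set beside the HOX genes as a description, and no difference was tested.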

How the data were processed

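For the ATAC-seq reads, the submitters' processing notes name Picard 2.2.4, Bowtie2 2.2.8 and Trim Galore 0.6.5, and MACS 2.1.0 and GENCODE 36 stand in the names of the peaks. Which libraries were pooled, filters and read shifts are not given in the sources used here. The deposited list gives each peak a score, a fold (a linear ratio over background), −log10 p-values and q-values and a summit. The deposited fold, −log10 p and score rank peaks alike, and the q-values were not used. A single background of 93.5 makes 100% of the pileups whole within 0.1, with fold equal to (pileup + 1) / (background + 1). It corrects for no regional difference in copy number or mappability.

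Genes, promoters and miRNAs came from RefSeq tables of GRCh38.p14, and the outermost annotated ends stand for a gene, so inner starts are missed. Each cluster runs between the outer ends of its described genes; some genes are not reported here. A peak counted for a gene when its summit lay within 1 kb of either end. Windows of a cluster's length were centred on every coding gene. With 1 pooled list no test was run. The members and lists were chosen with earlier results of these data known. Named were, in each cluster, the 3 highest genes, those without a summit, the first and last gene, fixed noncoding genes, flanking genes and the highest and widest peaks (not each of them), and, of lists, the 3 highest and those without a summit; any other name, the promoters shown and the motifs searched were picked with the peak values in view. The scripts, in Python 3.11.15 with numpy 2.4.6, pandas 2.3.3 and scipy 1.17.1, were tested on simulated peaks; matplotlib 3.10.9 drew the plots. Alternatives were the more significant 50% of peaks, peaks of at least 10-fold, windows of 0.5 and 2.5 kb, any overlap, nearest gene, flanks of 50 and 200 kb and HOXB ended at HOXB9.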

Additional observations from a re-analysis of the deposited data

How the results depend on the processing

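The list limits every value: libraries cannot be told apart, and a peak may come from a part of them. No paired analysis was possible because the list holds no value per library. No member passed 39.5-fold under any alternative, and 72 of 324 values of single genes or cluster medians moved by more than 1.5 times. Of the 38 HOX genes, 23 reached 10-fold with 2.5 kb windows and 20 with any overlap, against 75.2% and 73.5% of coding genes. The median at the ends was then 19.3 and 14.1 (coding genes 55.3 and 56.1), and over the 5′ end 14.1 with 2.5 kb. With peaks of at least 10-fold, coverage was 15.0% in HOXA, 20.9% in HOXB, 4.65% in HOXC and 2.57% in HOXD, peaks per 100 kb were 8.02, 8.99, 3.41 and 2.90, and flank coverage was 3.22%, 7.97%, 0% and 2.70%, so the flanks of HOXD then had more than the cluster; same-length windows were not recomputed. With the more significant 50% of peaks, there were 19.0, 17.98, 11.9 and 16.4 peaks per 100 kb, HOXC was covered over 14.4% and its flanks over 0.898%. HOXB ended at HOXB9 was covered over 57.1%. HOXA flanks of 50 kb had 18.9%, and flanks of 200 kb had 10.5% at HOXC and 3.68% at HOXD. The rank correlation with gene number was −0.224 in HOXB, −0.233 in HOXC and −0.417 in HOXD by coverage, and −0.780 in HOXC by any overlap. The 1.5-fold line for a moved value was set here, since there is no replicate spread.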
